A study of Homo sapiens with 36 samples.

Results

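The comparison of the compound TRAP1 with DMSO at 2 h covered 6 of the 36 RNA sequencing libraries of the series, 3 of BxPC-3 cells given 3 µM TRAP1 for 2 h and 3 of cells given the DMSO vehicle for 2 h. They were chosen by their labelled compound and time, and all 29744 genes of the deposited table entered, of which 14988 passed a filter on low counts and were tested. TRAP1 is here the name of a compound and not of the gene with that symbol. The series also holds 2 h libraries of TRAP-1-NegP, JQ1, TRAP-1-NegB and MS78, each at 3 µM, and 4 h libraries of all 5 compounds and of DMSO. These are used below only where TRAP1 at 2 h is set against them. Replicates are numbered 1 to 3 in each group with no word on whether the cultures were separate. The p-values rest on the spread between replicates within groups, estimated over all 36 libraries together, and this spread may be technical. All cells were unmodified BxPC-3, labelled as wild type, and were grown in serum-containing medium.

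BxPC-3 is an established line from a human pancreatic adenocarcinoma and carries a missense-mutant p53. The transcription factor p53 binds response elements at genes such as CDKN1A, BTG2 and GDF15 and switches on cell-cycle arrest, DNA repair and apoptosis genes. BET proteins such as BRD2 read acetylated histones and help RNA polymerase II leave the promoter. JQ1 is a bromodomain inhibitor that displaces BET proteins from chromatin, after which HEXIM1, the inhibitor of the elongation kinase P-TEFb, is known to rise. Neither the meaning of the suffixes NegP and NegB nor the target of MS78 is stated in the labels.

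The 3 TRAP1 libraries held 17948818 to 23454888 estimated counts and the 3 DMSO libraries 20135261 to 21978231. Levels are given in CPM, counts scaled to the same library total for every library after adjustment by the TMM factor, and a change is a log2 fold change of TRAP1 over DMSO with its SE. A gene is said to have risen or fallen at an adjusted p under 0.05 in edgeR's quasi-likelihood test. SMAD4 and CDKN2A, genes known to be deleted in BxPC-3, were at 0 in all 6 libraries. Of 12 pancreatic ductal markers 11 were tested and all 11 rose, beside 15.7% of all tested genes and 55.3% of those of 1000 TPM or more. Several of the markers, such as KRT19 and KRT18, lay in that band. The 12 markers summed to 11000 to 11400 TPM with TRAP1 and 9360 to 9400 TPM with DMSO, while CFTR was at 0. Mesenchymal markers summed to 3.5 to 5.95 TPM with TRAP1 and 4.17 to 5.1 TPM with DMSO, blood and endothelial markers to 28.6 to 34.8 TPM and 24.1 to 28.3 TPM, with PTPRC and KDR at 0, and acinar and endocrine markers to at most 0.419 TPM and to 0. On the leading axis of variation of the 2 h libraries, with 19.5% of the variance, TRAP1 lay at 21.5 to 22.9 and DMSO at −26.8 to −24.6. DMSO replicate 3 stood apart on the next axis, at −37.4 against 0.0164 and −0.929 for the other DMSO libraries.

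By 2 h of TRAP1, 2360 of the 14988 tested genes had risen, 15.7%, and 2145 had fallen, 14.3%, with a median change of 0.01 over all of them. TMM scaling assumes that most genes do not change, so this small median was largely set in advance. Changes are relative to the other genes, and a shift shared by all genes would not show. These are bulk samples, in which fewer cells of a type and less RNA per cell cannot be told apart. Most changes were small. Changes of at least 2-fold covered 556 genes, 3.71%. At least 2-fold rises numbered 244, or 1.63% of tested genes, and at least 2-fold falls 312, or 2.08%. A test against a change of 1.2-fold (edgeR's glmTreat) called 884 genes higher, 5.90%, and 1002 lower, 6.69%. All 3 libraries of 1 group lay above all 3 of the other in 47.7% of tested genes, so such a separation alone says little about a gene.

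**Figure D1:**
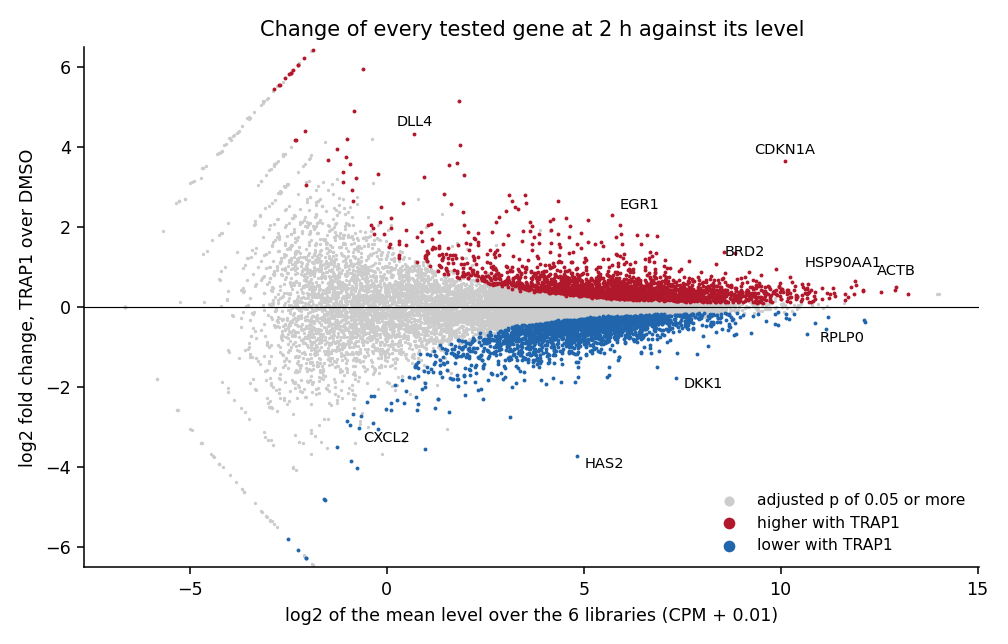
Log2 fold change of TRAP1 over DMSO at 2 h (vertical axis) against the log2 mean level over the 6 libraries (horizontal axis, CPM) for each of the 14988 tested genes, with genes that rose in red, genes that fell in blue and the rest in grey. CDKN1A stands alone among abundant genes at 3.66, and HAS2 is the lowest of the moderately abundant ones at −3.71. A few genes with larger changes, nearly all of them at 0 in every library of 1 group, lie beyond the vertical axis and are not drawn.

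CDKN1A, the gene of the cell-cycle brake p21, lies on the plus strand at chr6:36676460-36687339 (GRCh38, GENCODE v29) and had the largest rise among genes of at least 5 CPM. It stood at 2022, 2080 and 2036 CPM in the TRAP1 libraries, against 163.2, 168.8 and 153.2 CPM in the DMSO libraries. The change was 3.66 ± 0.053 (adjusted p = 3.2e-49), and in TPM, which allows genes to be ranked against each other, CDKN1A was the 121st most abundant gene with TRAP1 and the 1114th with DMSO. TP53INP1, a p53-induced stress protein gene, had 16.1, 15.6 and 13.4 CPM with TRAP1 and 1.13, 2.44 and 2.80 CPM with DMSO, a change of 2.82 ± 0.31 (adjusted p = 7.8e-10). GDF15, a secreted stress cytokine, had 56.3, 55.1 and 57.4 CPM with TRAP1 and 12.8, 10.6 and 13.7 CPM with DMSO, a change of 2.19 ± 0.15 (adjusted p = 6.9e-15). In none of these did the groups overlap, which the rule that ranked the rises required.

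The other 12 of the 15 largest rises included transcription regulators, secreted or surface proteins and signal inhibitors. POU3F1, a POU-domain transcription factor of neural and epidermal cells, had 32.7, 34.8 and 38.0 CPM with TRAP1 and 5.95, 5.59 and 5.09 CPM with DMSO (2.66 ± 0.17, adjusted p = 2.3e-18). EGR1, an immediate early zinc finger factor, had 84.2, 88.4 and 90.8 CPM with TRAP1 and 16.7, 18 and 18.2 CPM with DMSO (2.31 ± 0.11, adjusted p = 1.0e-23). ID3, which blocks basic helix-loop-helix factors, had 39.3, 37.0 and 38.4 CPM with TRAP1 and 8.75, 8.53 and 7.24 CPM with DMSO (2.23 ± 0.15, adjusted p = 7.5e-18). Separate groups were required by the rule here too, and in these 3 genes no DMSO library was above 18.2 CPM and no TRAP1 library below 32.7 CPM. FAM46C, a non-canonical poly(A) polymerase also named TENT5C, changed by 2.81, RGS16, which shortens G-protein signals, by 2.51, TNFSF9, which encodes the 4-1BB ligand, by 2.45, and BAMBI, a decoy receptor for TGF-beta family ligands, by 2.40. VASN, which encodes a secreted TGF-beta trap, changed by 2.62, OSR2 by 2.25, FAM212B by 2.20 and ZCCHC24 by 2.15. LOC101928589 met the same rule with 18.7, 16.4 and 11.8 CPM with TRAP1, but its DMSO libraries held 0, 7.22 and 0 CPM, and its change of 2.66 carried an SE of 0.65. It averaged 16.1 CPM with TRAP-1-NegP, 11.2 with JQ1, 12.5 with TRAP-1-NegB and 13.6 with MS78 at 2 h, and 10.1 with DMSO at 4 h. TRAP1 was not called against any of these compounds, so the change reflects low 2 h DMSO values and is not particular to TRAP1.

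**Figure D2:**
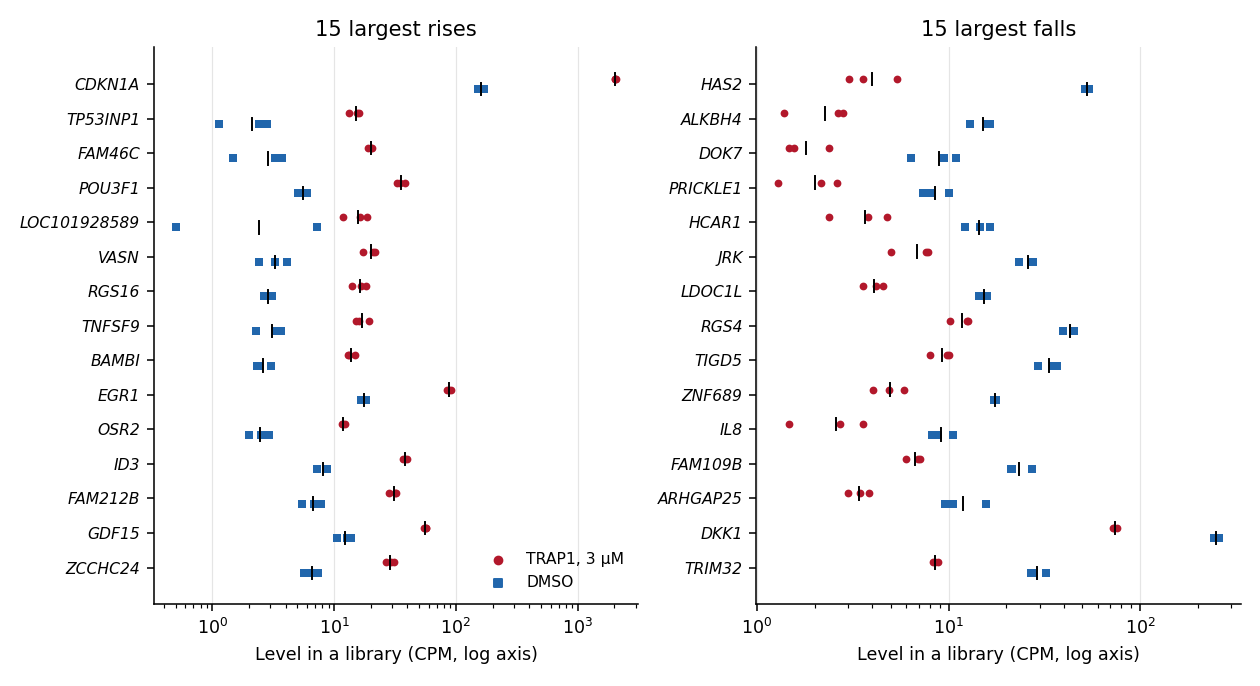
Level of the 15 genes with the largest rises (left) and the 15 with the largest falls (right) in each library, on a log axis in CPM, with TRAP1 libraries as red circles above the DMSO libraries as blue squares, values under 0.5 CPM drawn at 0.5 and black bars at the group means. In all 30 genes the 3 TRAP1 libraries and the 3 DMSO libraries do not overlap, which the rule that chose them required.

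The letters of a TATA box, a core promoter element bound by the TATA-binding protein, were counted in promoters as a description, with no test. A RefSeq promoter (build GRCh38.p14) was matched by symbol for 10948 of the 14988 tested genes, and the 250 bases before the start were searched on both strands. The letters TATAAA were found in 27 of 168 promoters of genes that rose at least 2-fold, 16.1%, in 11 of 226 of genes that fell at least 2-fold, 4.87%, and in 5.78% of all 10948. On the gene's own strand and starting 40 to 20 bases before the start, a window set after the data were seen, they occurred in 20 of the 168, 11.9%, in 2 of the 226, 0.885%, and in 1.87% of all. The 2 fallers were IL8 and DKK1. Shown here are the last 60 bases before the start for 6 of these 20 genes, a cytokine ligand, a stress cytokine, a sterol sensor, an AP-1 subunit, a chaperone and the P-TEFb inhibitor, all on the plus strand and with TATAAA in capitals.

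TNFSF9, chr19:6530966-6531025: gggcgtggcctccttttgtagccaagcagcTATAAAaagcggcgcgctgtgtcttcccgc
GDF15, chr19:18386098-18386157: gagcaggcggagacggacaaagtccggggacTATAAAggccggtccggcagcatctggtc
INSIG1, chr7:155297818-155297877: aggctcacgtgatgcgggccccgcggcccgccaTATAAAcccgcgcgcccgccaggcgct
FOS, chr14:75278768-75278827: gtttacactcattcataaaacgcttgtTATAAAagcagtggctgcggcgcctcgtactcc
HSPA1B, chr6:31827678-31827737: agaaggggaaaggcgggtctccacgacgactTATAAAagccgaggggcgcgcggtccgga
HEXIM1, chr17:45148415-45148474: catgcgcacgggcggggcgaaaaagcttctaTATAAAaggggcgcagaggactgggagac

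In these 6 promoters the box began 33 to 27 bases before the start, and the genes changed by 2.45, 2.19, 1.75, 1.57, 1.39 and 1.23 in the order shown. The letters CCAAT, on either strand, stood in 47.0% of the promoters of strong rises, 30.1% of those of strong falls and 34.9% of all. A p53 half-site, searched as 3 purines, C, 2 A or T, G and 3 pyrimidines on both strands, stood in 3.57%, 4.87% and 4.73%, and a match or its lack in this short window says nothing of the factor's binding. EGR1 is shown because it holds 2 CArG boxes, the serum response factor motif searched as CC, 6 A or T and GG, which occurs in 2 of the 168 promoters of strong rises, 1.19%, in 0 of the 226 of strong falls and in 1.03% of all, so that its share among the rises was near the background. They start 105 and 83 bases before the start and are in capitals in its last 120 bases on the plus strand.

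EGR1, chr5:138465359-138465478: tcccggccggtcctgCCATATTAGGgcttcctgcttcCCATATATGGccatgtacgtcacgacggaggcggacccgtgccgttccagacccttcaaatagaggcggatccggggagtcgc

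The largest fall was that of HAS2, which encodes a synthase of the matrix polysaccharide hyaluronan. HAS2 had 3.58, 3.03 and 5.41 CPM with TRAP1, against 54.0, 51.3 and 53.5 CPM with DMSO (−3.71 ± 0.26, adjusted p = 3.7e-12). DKK1, a secreted Wnt antagonist at chr10:52314296-52318042, had the highest CPM of the 15 in both groups, at 72.2, 73.0 and 75.8 CPM with TRAP1 and 248.0, 258.8 and 244.8 CPM with DMSO (−1.77 ± 0.067, adjusted p = 4.4e-28). RGS4, which restrains Gq and Gi signals, had 12.5, 10.2 and 12.6 CPM with TRAP1 and 39.4, 45.2 and 44.6 CPM with DMSO (−1.87 ± 0.15, adjusted p = 7.0e-15). Groups were separate in each, which the rule that ranked the falls required. ALKBH4, a demethylase of the AlkB family, changed by −2.74, the lactate receptor gene HCAR1 by −1.99, the planar polarity gene PRICKLE1 by −2.05, the adaptor gene DOK7 by −2.30 and the ubiquitin ligase gene TRIM32 by −1.76. The chemokine gene IL8 (now CXCL8) had 3.58, 1.46 and 2.70 CPM with TRAP1 and 10.5, 8.19 and 8.85 CPM with DMSO, a change of −1.82 ± 0.37. JRK (−1.93), LDOC1L (−1.90), TIGD5 (−1.86), ZNF689 (−1.82), FAM109B (−1.81) and ARHGAP25 (−1.80) completed the 15. Among them JRK and TIGD5 derive from transposases and LDOC1L, now RTL6, from a retrotransposon.

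In absolute CPM, the largest gains were in abundant genes of the cytoskeleton, glycolysis, translation and protein folding. ACTB gained the most, with 9058, 9327 and 9005 CPM with TRAP1 and 6427, 6428 and 6376 CPM with DMSO (0.51 ± 0.042, adjusted p = 8.1e-15). GAPDH, EEF1A1, CDKN1A, HSP90AA1, PKM, ACTG1, the mitochondrial ribosomal RNA RNR2, KRT5 and ENO1 followed, with changes of 0.32 to 0.66 apart from CDKN1A. Ribosomal protein genes made up 6 of the 10 largest losses. RPLP0, of the ribosomal stalk, had 3942, 4032 and 3971 CPM with TRAP1 and 5072, 5065 and 5176 CPM with DMSO (−0.36 ± 0.049, adjusted p = 4.6e-08), and RPS2, RPLP1, RPL35, RPL13, RPS9, S100A2, CHCHD2, OAZ1 and MYL6 made up the rest. Of 24 genes widely used as internal standards, 17 rose and 2 fell (median 0.27), the 2 being RPLP0 and C1orf43. Of all tested genes 15.7% rose and 14.3% fell, and of those of 1000 TPM or more 55.3% rose and 11.3% fell. ACTB and GAPDH were both among the rises.

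The share of genes called moved with level and transcript structure. Genes of 1000 TPM or more rose in 55.3% of cases and fell in 11.3%, and those of 100 to 1000 TPM rose in 45.4% and fell in 15.5%. Genes of 1 to 10 TPM rose in 7.62% and fell in 16.6%, and under 1 TPM the shares were 1.8% and 1.77%. Counting precision grows with level, so shares called in bands of different level are not directly comparable. The median change ran from −0.08 at 1 to 10 TPM to 0.21 at 1000 TPM or more. Among protein-coding genes with a GENCODE annotation, the fifth with the longest transcripts, 5.75 kb and above, rose in 8.72% and fell in 22.0%, against 19.8% and 13.9% in the fifth with the shortest. Genes with 2 exons fell in 27.2% and rose in 15.7%, and genes with 10 or more exons fell in 11.8% and rose in 18.2%. Genes that rose at least 2-fold had a median genomic span of 11.2 kb and 5 exons, and 9.31% of them had 1 exon. Genes that fell at least 2-fold had a median span of 16.7 kb and 5 exons, and 4.58% had 1 exon, and the 13297 tested genes with these values had 32.1 kb, 9 exons and 1.96%. When counts were corrected for GC content and transcript length, which could be done for 14051 of the 14988 genes, 4156 of the 4505 calls were made again and 1 turned to the opposite direction.

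**Figure D3:**
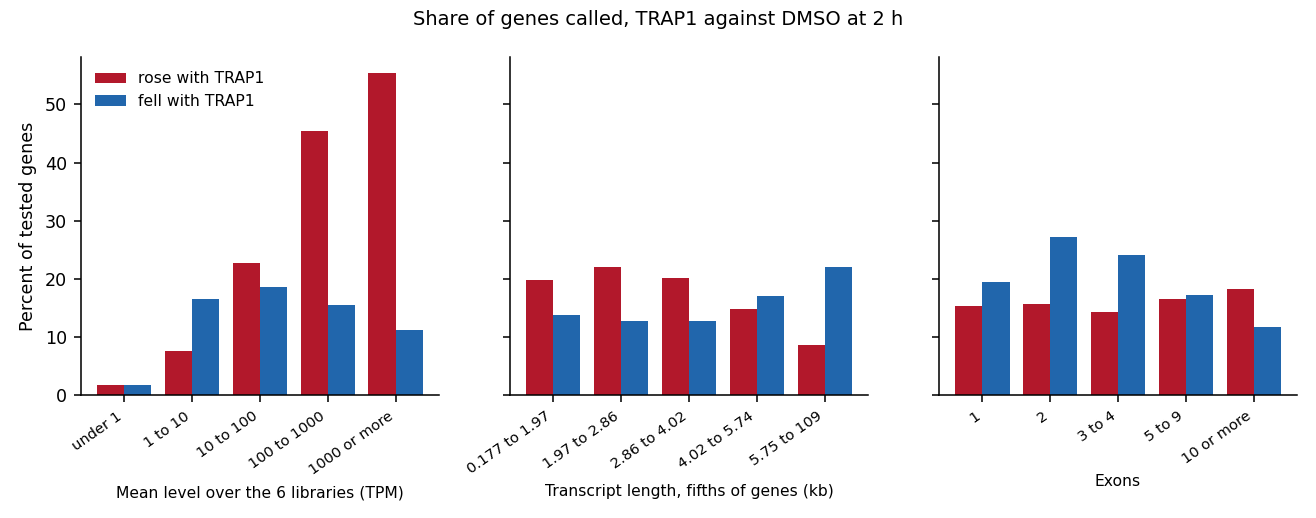
Percent of tested genes that rose (red) or fell (blue) with TRAP1 at 2 h by mean level over the 6 libraries in TPM (left), by transcript length in kb, in 5 bins of equal size (middle) and by number of exons (right). Rises increase with level to 55.3% at 1000 TPM or more, and falls are most frequent in the longest transcripts, 22.0%, and in genes with 2 exons, 27.2%.

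Gene lists drawn from pathways and families are described next by how many of their tested members rose or fell, to be read against the 15.7% and 14.3% over all genes. Lists of abundant genes, such as those of chaperones or ribosomal proteins, are also to be read against the higher share of rises among abundant genes. Lists of genes at low levels are likewise to be read against the lower share of rises there.

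**Figure D4:**
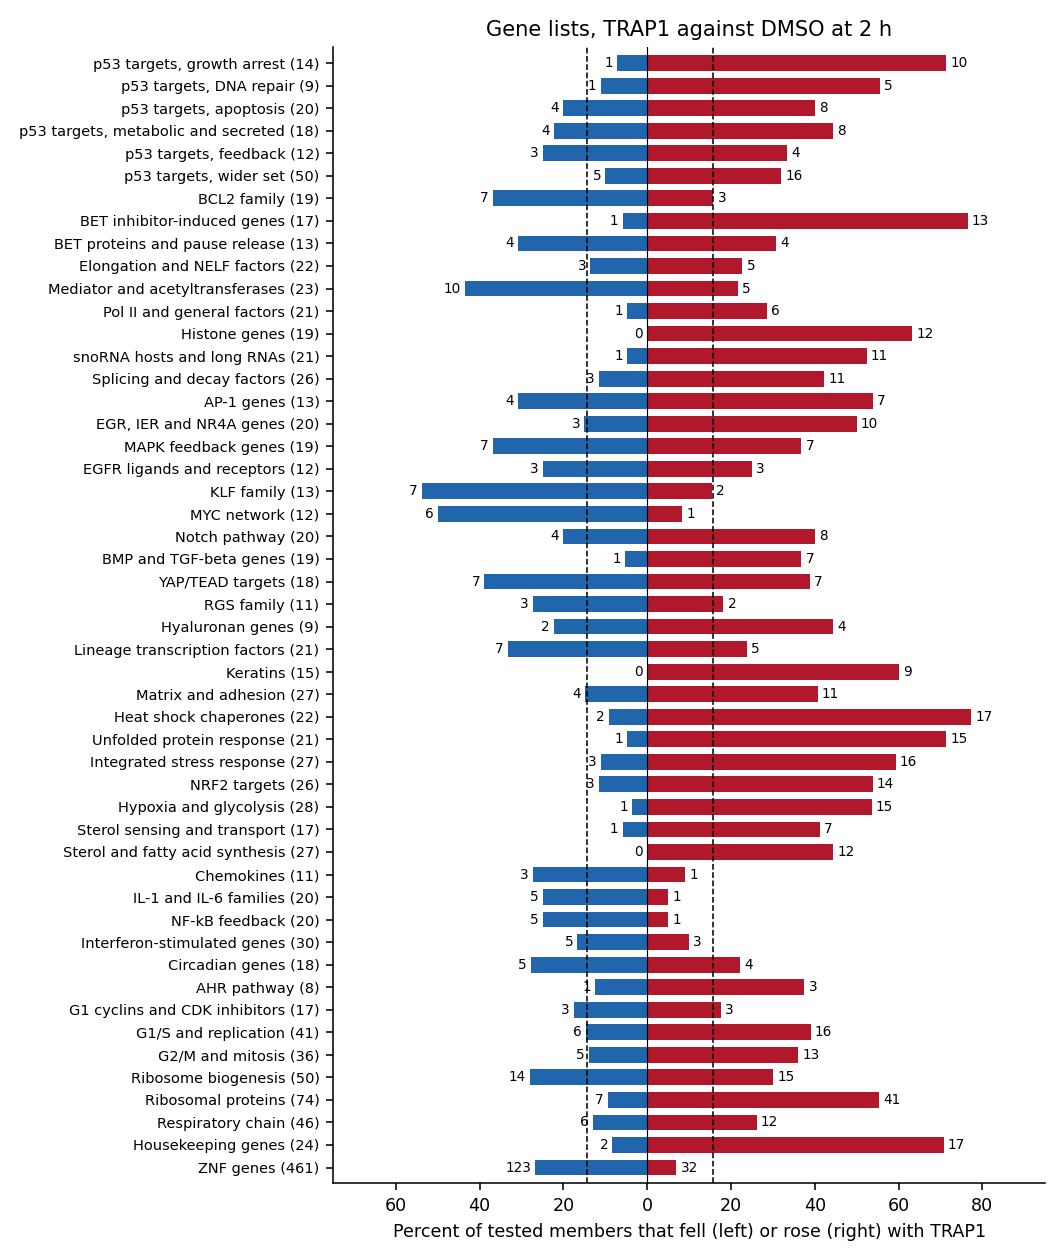
Percent of the tested members of each gene list that rose (red, right) or fell (blue, left) with TRAP1 at 2 h, with the number of members beside each bar, the number tested after each name and dashed lines at the 15.7% and 14.3% of all tested genes. Heat shock chaperones (17 of 22), BET inhibitor-induced genes (13 of 17), growth-arrest targets of p53 (10 of 14) and unfolded protein response genes (15 of 21) have long bars to the right, while KLF family (7 of 13) and MYC network genes (6 of 12) have long bars to the left.

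Growth-arrest targets of p53 mostly rose. Of 14 tested, 10 rose and 1 fell (median 0.79). BTG2, an antiproliferative cofactor of deadenylases, had 95.8, 95.2 and 102.0 CPM with TRAP1 and 21.6, 25.3 and 23.1 CPM with DMSO (2.07 ± 0.10, adjusted p = 3.0e-23). PLK3, a stress-activated polo-like kinase gene, had 151.7, 154.1 and 149.7 CPM with TRAP1 and 46.0, 43.8 and 40.4 CPM with DMSO (1.81 ± 0.082, adjusted p = 6.1e-25). The stress sensors GADD45B (1.48) and GADD45A (1.34), the phosphatase gene PPM1D (1.01), BTG1, CCNG1, SFN, PLK2 and CDKN1A were the other rises. CCNG2 stood at −0.05 and ZMAT3 at −0.02, neither past the test.

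Repair, apoptosis and metabolic targets of p53 were more mixed. Among 9 repair genes 5 rose and 1 fell, and POLH, the translesion polymerase eta gene, had 47.9, 36.5 and 35.6 CPM with TRAP1 and 7.89, 11.1 and 10.4 CPM with DMSO (2.03 ± 0.15, adjusted p = 1.8e-16). XPC (0.88), RRM2B (0.63) and PCNA (0.62) rose too, and REV3L fell (−0.48). Of 20 apoptosis genes, 8 rose and 4 fell (median 0.24). The BH3-only genes BBC3 and PMAIP1 changed by 1.73 and 1.29 and the decoy death receptor gene TNFRSF10D by 1.37, while the nuclease gene AEN (−1.48), SIVA1 (−0.80) and BAK1 (−0.57) fell. TNFRSF10C, another decoy receptor, held 21, 20 and 24.6 estimated counts with TRAP1 and 2, 0 and 0 with DMSO, too few for a fold. FAS, a death receptor gene, had 9.02, 8.88 and 12 CPM with TRAP1 and 9.34, 9.58 and 11.6 CPM with DMSO, overlapping groups with a change of −0.03 and a 95% interval of −0.42 to 0.36.

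Of 18 metabolic and secreted targets 8 rose and 4 fell, with the sestrin genes SESN2 (1.63) and SESN1 (1.05), which restrain mTOR signalling, beside GDF15, and with SCO2 (−1.06) and CSF1 (−0.87) down. Of 12 feedback genes 4 rose and 3 fell. MDM2, the ubiquitin ligase gene of the p53 feedback loop, had 52.2, 42.5 and 51.9 CPM with TRAP1 and 48.7, 46.1 and 47.2 CPM with DMSO. Its groups overlapped, and the change was 0.05 ± 0.12 (adjusted p = 0.82), whereas after correction for GC content and transcript length it was 0.24 and passed the test (adjusted p = 0.04). A wider set of 50 tested targets gave 16 rises and 5 falls (median 0.15), led by PLK3, SERTAD1 (1.79), a regulator of cyclin D kinases, and TOB1 (1.25). In the BCL2 family, 3 of 19 rose and 7 fell (median −0.33). The 3 were the BH3-only genes BCL2L11 (1.77), BBC3 and PMAIP1, and the 7 included the prosurvival BCL2L1 (−0.33) and the proapoptotic BAD (−0.77), BAK1 and BIK (−0.57).

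Genes known to rise on BET inhibition did so here in 13 of 17 cases, with 1 fall (median 1.14). HEXIM1 had 141.9, 136.2 and 142.5 CPM with TRAP1 and 53.3, 67.9 and 58.3 CPM with DMSO (1.23 ± 0.082, adjusted p = 5.5e-18). BRD2 had 435.8, 464.1 and 447.3 CPM with TRAP1 and 210.7, 210.7 and 212.6 CPM with DMSO (1.09 ± 0.048, adjusted p = 2.1e-25). The protease inhibitor gene SERPINI1, much lower, had 6.13, 5.00 and 4.88 CPM with TRAP1 and 1.04, 1.01 and 0.596 CPM with DMSO (2.59 ± 0.34). FAM46C, ZCCHC24, VAMP1 (2.15), HIST1H2BD (1.93), HIST2H2BE (1.61), SAT1 (1.14) and TXNIP (0.96) rose with them, and CCND1 fell (−0.18). Other BET and pause-release genes split, with LARP7 (0.72) and MEPCE (0.50) of the 7SK particle up, and the elongation kinase genes CDK12 (−0.61) and CDK13 (−0.42) down. CDK9, the P-TEFb kinase, stood at −0.16 and was not called, though it was at −0.20 after the correction for GC content and length (adjusted p = 0.029).

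Histone genes rose in 12 of 19 cases with 0 falls (median 0.81). Replication-dependent histone transcripts normally lack a poly(A) tail and these libraries were made from polyadenylated RNA, so the values cover the polyadenylated part only, and near-identical copies such as HIST2H4A and HIST2H2AA3 share reads and are uncertain. Hosts of small nucleolar RNAs and other long noncoding RNAs rose in 11 of 21 cases and fell in 1 (median 0.41). SNHG1 had 149.9, 157.1 and 146.7 CPM with TRAP1 and 61.5, 63.9 and 59.6 CPM with DMSO (1.29 ± 0.066, adjusted p = 1.0e-22). Among splicing and decay factors 11 of 26 rose and 3 fell, with the kinase genes CLK1 (1.02) and CLK2 (0.61) and the factor gene SRSF5 (0.58) up and the exonuclease gene XRN1 (−0.57) down.

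Mediator and acetyltransferase genes leaned down, with 5 rises and 10 falls among 23 (median −0.22). CREBBP and EP300, paired histone acetyltransferases, fell by 0.78 and 0.63, and MED13 fell by 0.76, whereas MED26, the Mediator subunit that recruits elongation factors, rose (0.90). Of 21 RNA polymerase II and general factor genes 6 rose and 1 fell, among them GTF2B (1.01), GTF2F2 (0.82) and POLR2A (0.71), the large polymerase subunit. Of 22 elongation and NELF genes 5 rose and 3 fell.

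In the AP-1 family 7 of 13 rose and 4 fell. FOS had 55.5, 62.9 and 56.4 CPM with TRAP1 and 18.6, 19.5 and 20.6 CPM with DMSO (1.57 ± 0.10, adjusted p = 2.3e-18), ATF3 changed by 2.02, JUND by 1.58 and JUN by 1.04. FOSL2 (−0.79), BATF (−0.86), MAFK (−0.75) and MAFG (−0.69) fell. Of 20 EGR, IER and NR4A genes, 10 rose and 3 fell, with ARC (1.71) and NR4A1 (1.58) after EGR1, and with PHLDA1 (−0.96), NAB1 (−0.74) and ZFP36L1 (−0.52) down.

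MAPK feedback genes split 7 to 7 among 19. DUSP4, an ERK phosphatase gene, had 153.0, 147.9 and 135.5 CPM with TRAP1 and 316.9, 337.3 and 324.6 CPM with DMSO (−1.17 ± 0.058, adjusted p = 3.0e-23), and SPRY1 (−1.49), DUSP10 (−0.89) and DUSP6 (−0.55) fell, while DUSP1 (0.94), DUSP14 (0.83) and DUSP5 (0.76) rose. EGFR had 62.5, 69.7 and 70.6 CPM with TRAP1 and 138.7, 131.2 and 138.1 CPM with DMSO (−1.01 ± 0.082, adjusted p = 7.4e-15). Its ligand genes AREG (0.94) and HBEGF (0.74) and its inhibitor gene ERRFI1 (0.70) rose. Its ligand gene EREG (−0.45) fell, as did NRG1 (−0.53), a ligand gene of other receptors of the EGFR family.

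Transcription factor families with many falls were the KLF and MYC networks. In the KLF family 2 of 13 rose and 7 fell (median −0.54). KLF6 had 9.92, 9.44 and 8.87 CPM with TRAP1 and 21.6, 24.9 and 27.7 CPM with DMSO (−1.39 ± 0.16, adjusted p = 6.3e-10), KLF7 (−1.34), KLF8 (−1.20) and KLF5 (−0.54) fell with it, and KLF2 (1.85) and KLF4 (0.66) rose. In the MYC network 1 of 12 rose and 6 fell. MYC had 59.9, 61.1 and 55.0 CPM with TRAP1 and 92.5, 91.0 and 83.8 CPM with DMSO (−0.60 ± 0.076, adjusted p = 5.9e-09), its dimer partner MAX (−0.25) and MGA (−1.27) and MNT (−0.90), which pair with MAX and oppose MYC, fell, and MYCL rose (0.76). Of 461 tested genes whose symbol is ZNF and a number, 32 rose, 6.94%, and 123 fell, 26.7% (median −0.31). Among 21 lineage factors 5 rose, including SOX9 (0.42) and GATA6 (0.27), and 7 fell, including FOXA2 (−0.94), FOXA1 (−0.69), SOX2 (−0.71) and TP63 (−0.45).

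Developmental signalling genes gave some of the steepest changes. In the Notch pathway 8 of 20 rose and 4 fell. The ligand gene DLL4 held 79, 45 and 70 estimated counts with TRAP1 and 3, 3 and 4 with DMSO (4.33 ± 0.74, adjusted p = 1.0e-05), a rise from a level near the limit of detection. NRARP, a Notch-induced feedback inhibitor, had 130.3, 128.5 and 123.9 CPM with TRAP1 and 35.8, 37.0 and 35.9 CPM with DMSO (1.82 ± 0.090, adjusted p = 3.0e-23). HES2 (1.86), NOTCH1 (1.13) and LFNG (0.87), which glycosylates Notch receptors, rose, and HEY1 (−1.31), NOTCH2 (−0.68) and DTX4 (−0.66) fell, while HES1, a classical target, stood at 0.18 and was not called.

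Of 19 BMP and TGF-beta genes 7 rose and 1 fell. The rises were in inhibitors and targets, BAMBI, ID3, ID2 (1.99), SMAD7 (1.00) and SMAD6 (0.64), and in SKI and TGFB1 (0.62), and the ligand gene BMP4 fell (−2.05), whereas ID1 had a change of −0.01. YAP and TEAD targets split 7 to 7 among 18, with CTGF (2.13) and CYR61 (1.02) up and FJX1 (−1.20) and ANKRD1 (−0.82) down. Among 9 hyaluronan genes HAS2 moved against HAS3 (0.31) and the receptor gene CD44 (0.29), which rose. Among 11 RGS genes RGS16 and RGS2 (0.50) rose and RGS4, RGS19 (−1.02) and RGS3 (−0.59) fell.

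Of 15 keratin genes 9 rose and 0 fell (median 0.24), with KRT5 at 0.51, KRT18 at 0.47 and KRT19 at 0.37. Of 27 matrix and adhesion genes 11 rose and 4 fell, including TIMP1 (0.53) and MMP14 (0.47) up and the integrin genes ITGB8 (−0.77) and ITGA2 (−0.34) down.

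Stress programmes had rises in most of their listed members, beside 15.7% of all tested genes. Over all genes 45.4% rose at 100 to 1000 TPM and 55.3% at 1000 TPM or more. Counts for lists with many abundant members, here and in the next paragraph, therefore say less about the programme. Of 22 heat shock genes 17 rose and 2 fell (median 0.46). HSPA1B had 550.6, 554.7 and 528.8 CPM with TRAP1 and 205.6, 204.0 and 212.3 CPM with DMSO (1.39 ± 0.055, adjusted p = 1.2e-27), and HSPA1A, a near-identical copy that may share its reads, changed by 1.36. DNAJB1 (0.87), BAG3 (0.76) and HSPH1 (0.73) rose, HSF2 fell (−0.56), and HSF1, the main heat shock factor, stood at 0.18. Of 21 unfolded protein response genes 15 rose and 1 fell. HSPA5, the chaperone BiP of the endoplasmic reticulum, had 1255, 1223 and 1264 CPM with TRAP1 and 628.1, 640.4 and 644.0 CPM with DMSO (0.97 ± 0.042, adjusted p = 9.3e-26), and the 1 fall was XBP1 (−0.70), a transcription factor of this response.

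Integrated stress response genes rose in 16 of 27 cases and fell in 3. DDIT3, which encodes CHOP, changed by 0.99, PPP1R15A by 0.88, ASNS by 0.61 and ATF4 by 0.38. The falls were TRIB3, with 10.7, 14.1 and 10.4 CPM with TRAP1 and 34.0, 31.3 and 29.3 CPM with DMSO (−1.43 ± 0.16, adjusted p = 2.1e-10), and the amino acid transporter genes SLC7A1 (−0.67) and SLC7A11 (−0.52). NRF2 targets rose in 14 of 26 cases, GCLC by 0.71 among them, and fell in 3, with HMOX1 at −0.26 and not called. Hypoxia and glycolysis genes rose in 15 of 28 and fell in 1, with the largest rise in ADM (1.59), a secreted vasodilator peptide gene.

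The sterol gene INSIG1, whose protein holds the sterol-regulated factor SREBP in the endoplasmic reticulum, had 88.5, 79.0 and 94.2 CPM with TRAP1 and 27.6, 23.0 and 27.2 CPM with DMSO (1.75 ± 0.077, adjusted p = 1.4e-25). Of 17 sensing and transport genes 7 rose and 1 fell. Of 27 synthesis genes 12 rose and 0 fell, with IDI1 at 1.31 and SQLE at 0.30, while SREBF1 (0.16) and SREBF2 (−0.11) did not pass the test.

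Inflammatory genes gave few rises, and several of the chemokines lay under 10 TPM with DMSO. Over all genes only 7.62% rose at 1 to 10 TPM and 1.8% under 1 TPM, so few rises at such levels say little. Of 11 chemokines 1 rose, CXCL11 (0.51), and 3 fell, IL8, CXCL1 and CXCL2. CXCL1 had 1.86, 1.35 and 0.996 CPM with TRAP1 and 6.77, 4.49 and 5.32 CPM with DMSO (−1.97 ± 0.47, adjusted p = 0.00078), and CXCL2 held 1, 1 and 6 estimated counts with TRAP1 and 21, 26 and 26 with DMSO. Of 20 IL-1 and IL-6 family genes 1 rose and 5 fell, including the cytokine genes CLCF1 (−1.05), LIF (−0.61) and IL1B (−0.47). Of 20 NF-kB genes NFKBIE rose (0.47) and 5 fell, including REL (−1.39), BCL3 (−1.08) and TNFAIP3 (−0.60), whereas the early feedback gene NFKBIA stood at 0.10. Interferon-stimulated genes gave 3 rises and 5 falls among 30. Circadian genes split, with PER1 up (1.14) and PER2 (−0.85) and CLOCK (−0.68) down among 4 rises and 5 falls of 18.

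Cell-cycle genes had mostly small changes at 2 h. Of 36 G2/M genes 13 rose and 5 fell, NUF2 (0.77), PTTG1 (0.71) and CDK1 (0.52) among the rises and CENPA (−0.68), AURKA (−0.55) and PLK1 (−0.28) among the falls. Of 41 replication genes 16 rose and 6 fell, CCNE2 (0.68) and PCNA highest and E2F2 (−0.88) lowest. Of 17 tested G1 cyclins, kinases and inhibitors 3 rose and 3 fell. The proliferation marker gene MKI67 stood at −0.04.

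Of 74 ribosomal protein genes 41 rose and 7 fell (median 0.19), RPL7 at 0.58 and RPL22 at 0.54 at one end and RPL35 at −0.67 and RPLP1 at −0.53 at the other. Among 50 ribosome biogenesis genes 15 rose and 14 fell, with NOP58 (0.95) and NCL (0.75), of small nucleolar particles and the nucleolus, up and PPAN (−0.96) down. Of the 4 RNA polymerase I subunit genes among them, POLR1B (−0.96) and POLR1A (−0.60) fell, POLR1E rose (0.48) and POLR1C stood at −0.03 and was not called. Of 46 nuclear respiratory chain genes 12 rose and 6 fell, UQCRB (0.68) and NDUFB7 (−0.87) being the extremes of those called.

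TRAP1 was set against each of the other compounds at the same 3 µM and 2 h, 4 comparisons that share the TRAP1 libraries, with p-values adjusted over all genes within each. Against TRAP-1-NegP, 79 genes were higher, 0.527%, and 41 lower, 0.274%. Against JQ1, 165 were higher, 1.10%, and 133 lower, 0.887%. These small counts moved with the libraries used, and with 1 library left out at a time they were 48 to 58 higher and 6 to 22 lower against TRAP-1-NegP, and 78 to 151 higher and 46 to 131 lower against JQ1. Against TRAP-1-NegB, 1739 were higher, 11.6%, and 1368 lower, 9.13%, and against MS78 1796 were higher, 12%, and 1592 lower, 10.6%. All these counts depended on the fit of all 36 libraries. With only the groups compared in the fit, 450 genes were higher and 662 lower against TRAP-1-NegP, and 510 and 526 against JQ1. Higher genes then numbered 1982 against TRAP-1-NegB and 621 against MS78, so the contrast between compounds in these counts moved with the fit. In the fit of all 36 libraries, 72.8% of the 14868 genes not called against TRAP-1-NegP had a 95% interval within 2-fold in either direction. Against JQ1 the share was 72.1%, so for the others a 2-fold difference was within the error.

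The largest differences between TRAP1 and TRAP-1-NegP included the p53 targets CDKN1A, TP53INP1 and GDF15. CDKN1A averaged 2050 ± 30.5 CPM with TRAP1, 293 ± 7.18 CPM with TRAP-1-NegP, 327 ± 4.45 CPM with JQ1, 226 ± 11 CPM with TRAP-1-NegB, 150 ± 10.8 CPM with MS78 and 162 ± 7.93 CPM with DMSO (SD, n = 3 each). It was higher with TRAP1 than with each of the other 4 compounds, by 2.80, 2.64, 3.18 and 3.77 in that order (the largest adjusted p = 5.8e-43). TP53INP1 averaged 15 CPM with TRAP1 and 1.65 to 2.7 CPM in the other 5 groups, and GDF15 56.3 CPM with TRAP1 and 9.37 to 15.2 CPM in the others, each higher than with every other compound. BTG2 (1.30), RGS16 (1.99), POU3F1 (1.89), FAM212B (1.24), ID3 (0.76) and MDM2 (0.70) were also higher with TRAP1 than with TRAP-1-NegP. MDM2 averaged 48.9 CPM with TRAP1, 30.1 CPM with TRAP-1-NegP, 31.5 CPM with JQ1, 57 CPM with TRAP-1-NegB, 41 CPM with MS78 and 47.3 CPM with DMSO. Its level with TRAP1 was thus above those of TRAP-1-NegP (adjusted p = 0.00015) and JQ1 (adjusted p = 0.00042), and near that of DMSO.

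Counted by list, 5 of 14 growth-arrest targets, 5 of 20 apoptosis targets and 4 of 18 metabolic targets of p53 were higher with TRAP1 than with TRAP-1-NegP and 0 were lower. Over all genes 0.527% were higher and 0.274% lower, so that the 0 lower says little. Against JQ1 the counts were 6, 3 and 5 higher and 1, 0 and 1 lower, beside 1.10% and 0.887% of all genes. For 17 BET inhibitor-induced genes they were 0 higher and 0 lower against TRAP-1-NegP and 0 and 1 against JQ1, where 0.527% and 1.10% of all genes were higher, so that a count of 0 is near the background and says little about the list. They were 14 and 1 against TRAP-1-NegB and 13 and 0 against MS78, where 11.6% and 12% of all genes were higher. HEXIM1 averaged 140 CPM with TRAP1, 125 CPM with TRAP-1-NegP, 132 CPM with JQ1, 62.5 CPM with TRAP-1-NegB, 59.3 CPM with MS78 and 59.8 CPM with DMSO. TRAP1 over TRAP-1-NegP was 0.17 with a 95% interval of 0.01 to 0.33 and an adjusted p of 0.42, and TRAP1 over JQ1 was 0.08, interval −0.08 to 0.24. BRD2 (0.12, interval 0.03 to 0.22) and HAS2 (−0.02, interval −0.64 to 0.60) were likewise not called against TRAP-1-NegP.

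Some genes were lower with TRAP1 than with TRAP-1-NegP or with JQ1. INSIG1 averaged 87.2 CPM with TRAP1, 142 CPM with TRAP-1-NegP and 90.9 CPM with JQ1, a difference of −0.70 from TRAP-1-NegP (adjusted p = 2.9e-10). ZNF579, KTI12, DDX28 and MAP1S were the other largest differences of that sign, −0.79 to −0.61. EGR1 averaged 87.8 CPM with TRAP1 and 164 CPM with JQ1 (−0.90, adjusted p = 8.6e-09), and SNX29, PPTC7, KLF7 and MYLIP differed from JQ1 by −0.75 to −0.67. INSIG1 and EGR1 were both higher with TRAP1 than with TRAP-1-NegB (1.0 and 2.01) and with MS78 (0.68 and 2.06). ZBTB5, a zinc finger gene, was higher with TRAP1 than with JQ1, at 92.4 ± 8.6 CPM and 28.8 ± 3.38 CPM (1.68, adjusted p = 6.7e-20).

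The xenobiotic-metabolism genes CYP1A1 and CYP1B1, targets of the aryl hydrocarbon receptor, were much lower with TRAP1 than with TRAP-1-NegB and MS78. CYP1A1 averaged 2.27 ± 0.372 CPM with TRAP1, 22.6 ± 1.2 CPM with TRAP-1-NegB, 11.3 ± 1.17 CPM with MS78 and 1.65 ± 0.214 CPM with DMSO (SD, n = 3 each). The differences were −3.31 from TRAP-1-NegB and −2.31 from MS78, while TRAP1 over DMSO was 0.46 and was not called. CYP1B1 averaged 9.1 CPM with TRAP1, 154 CPM with TRAP-1-NegB, 78 CPM with MS78 and 15.5 CPM with DMSO, and ARTN 2.76, 14.3, 10.8 and 5.87 CPM in the same groups. HIST2H4A had 23.4 CPM with TRAP1 and was listed at 0 in all 3 TRAP-1-NegB libraries, and at 6.18 ± 5.58 CPM with DMSO.

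Of 8 tested genes of the aryl hydrocarbon receptor pathway 3 rose and 1, CYP1B1, fell with TRAP1 against DMSO.

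**Figure D5:**
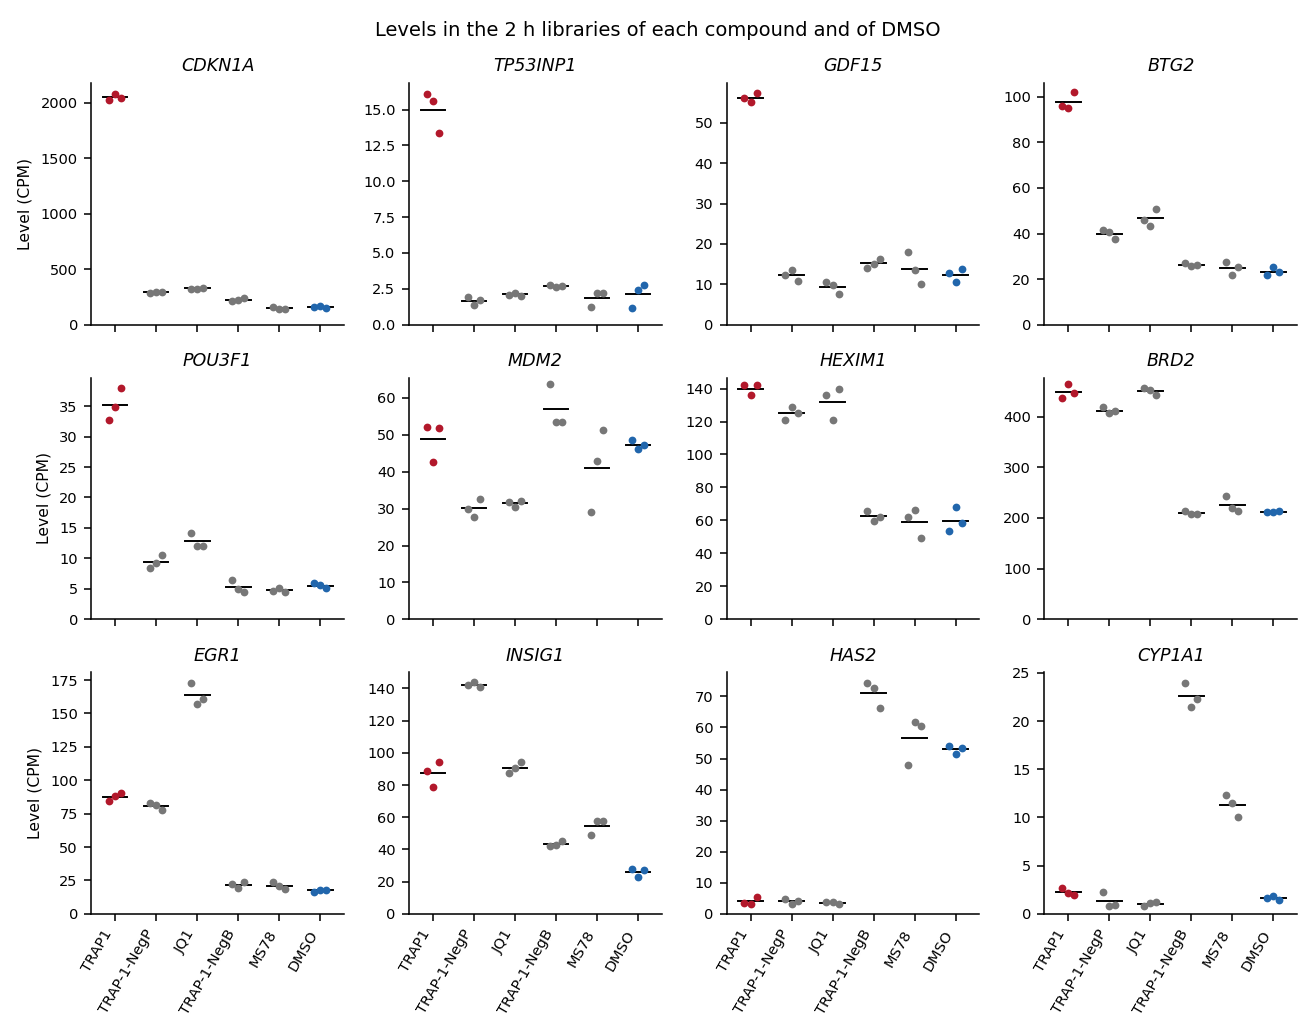
Level in CPM of 12 genes in each 2 h library of TRAP1 (red), the other compounds (grey) and DMSO (blue), with bars at the means of 3 libraries. CDKN1A, TP53INP1 and GDF15 are highest with TRAP1, with CDKN1A also above DMSO in every library of TRAP-1-NegP, JQ1 and TRAP-1-NegB, HEXIM1, BRD2 and EGR1 are high and HAS2 low with TRAP1, TRAP-1-NegP and JQ1, and CYP1A1 is high with TRAP-1-NegB and MS78.

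The TRAP1 effect at 4 h, measured against DMSO at 4 h, differed from that at 2 h for 3295 genes, 22.0% of those tested. TRAP1 replicate 1 at 4 h stood apart from its group, and without it 3031 genes differed. CDKN1A averaged 7760 ± 228 CPM with TRAP1 and 161 ± 4.78 CPM with DMSO at 4 h, so that its effect was 1.93 larger than at 2 h. EGR1 averaged 59.4 ± 3.66 CPM with TRAP1 and 12.8 ± 2.36 CPM with DMSO at 4 h, with a difference between the effects of −0.10 ± 0.16 that was not called.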

How the data were processed

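Polyadenylated RNA of BxPC-3 cells was sequenced in 36 libraries, 3 in each of 12 groups, with paired reads of 150 bases, per the labels. The authors deposited gene-level estimated counts and TPM values (transcript abundance per length, scaled to the same total in each library) that were made with Salmon 1.10.3 within nf-core/rnaseq 3.18.0 on build hg38, per the submitters' processing notes. Which annotation release they used is not given here. From these, estimated counts were rounded to integers, and 14988 of 29744 genes passed edgeR's filterByExpr with a minimum count of 10. All 36 libraries were fitted together by group in edgeR 4.0.16 (R 4.3.3) with TMM factors and the robust quasi-likelihood test, and p-values were adjusted by Benjamini-Hochberg over all tested genes. The biological coefficient of variation was 0.135. SE is the absolute log2 fold change divided by the square root of F. TPM served only to compare levels between genes.

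The members and gene lists were chosen with earlier results of these data known. Genes were named by a rule, the 15 largest rises and falls of at least 5 CPM with separate groups, the 10 largest gains and losses in CPM, up to 6 called members per list and direction with uncalled members of lists of up to 15, a panel given in all 2 h groups, and the 5 largest differences from each compound. ARC, ASNS, CLK2, HES1, HIST2H2AA3, HMOX1, HSF1, HSPA1A, HSPH1, ID1, ID2, MKI67, NFKBIA, PLK2, POLR1C, POLR1E, SFN, SQLE, SREBF1, SREBF2 and VAMP1 were named after their values were seen. GENCODE v29 gave GC content, length and exons for 93.7% of tested genes. Replicate libraries differed by more than sampling noise, with chi-square values of 4.86 to 6.23 per degree of freedom, so each counted as 1 replicate. Alternatives were other size factors, DESeq2 1.42.0, other count filters, length-scaled counts, a correction for GC content and length, a replicate block, fewer groups in the fit and leaving out libraries. The fit was tested on simulated data. Transcript-level values were planned but are not used here, because their identifiers carried no annotation. Some members of the lists are not reported here.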

Additional observations from a re-analysis of the deposited data

Results flagged for a closer look

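The effect of TRAP1 against DMSO differed between 4 h and 2 h, by edgeR's test of the interaction, for 21 of the genes named in the panel or among the largest changes. The values are the log2 effect at 4 h minus that at 2 h. Among p53 targets the effect was higher at 4 h by 2.39 for TP53INP1, 2.0 for GDF15, 1.93 for CDKN1A, 0.9 for MDM2 and 0.5 for BTG2. MDM2, which was not called at 2 h, averaged 74.5 ± 3.49 CPM with TRAP1 and 38.7 ± 3.91 CPM with DMSO at 4 h (SD, n = 3 each). The difference was 0.78 for HEXIM1, 0.69 for BRD2 and 1.08 for FAM46C, 1.18 for ATF3, 0.37 for HSPA5 and 1.65 for INSIG1. It was 1.06 for POU3F1, 1.52 for ID3 and 1.03 for FAM212B. Of the genes that had fallen at 2 h, the effect was lower at 4 h by −1.45 for HAS2, −1.44 for ALKBH4, −2.01 for PRICKLE1, −2.31 for HCAR1 and −0.88 for FAM109B, and the difference was positive for RGS4 (0.64) and IL8 (1.55). TRAP1 replicate 1 at 4 h stood apart from its group, and without it 3031 of all tested genes differed, against 3295 with it.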

How the results depend on the processing

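Counts of genes that rose or fell against DMSO stayed within 1.5 times under every alternative tried, with 1913 to 2138 rises and 1720 to 1861 falls when 1 library was left out and at least 81.5% of the 4505 calls shared. With only the groups compared in the fit, 2935 genes rose and 3056 fell. Of 226 genes named in the text, 199 kept direction and call in every alternative. Replicate numbers gave no sign of pairing the libraries, though the labels do not say what a number shares across groups. Same-numbered TRAP1 and DMSO libraries had correlations of deviations of −0.0187, 0.00962 and 0.0013, and the replicate block gave 2336 rises and 2119 falls. Differences from TRAP-1-NegP depended most on the fit. Genes higher and lower with TRAP1 numbered 149 and 101 by DESeq2, 139 and 104 with no count filter, 450 and 662 with only the groups compared and 217 and 246 without TRAP1 replicate 1 at 4 h and MS78 replicate 1 at 2 h, 2 libraries that stood apart. Higher genes numbered 144 after correction for GC content and length and 143 with the replicate block added. Leaving out 1 library gave 48 to 58 higher and 6 to 22 lower. Against JQ1 the higher and lower counts were 286 and 267 by DESeq2, 510 and 526 with only the groups compared and 385 and 308 without those 2 libraries, higher genes were 250 with no filter, 257 after the correction and 259 with the block added, and leaving out 1 library gave 78 to 151 higher and 46 to 131 lower. Against TRAP-1-NegB, leaving out 1 library gave 1149 to 1329 higher, and only the groups compared gave 2277 lower. Against MS78, only the groups compared gave 621 higher and 981 lower. The cause of these shifts was not tested. ZMAT3, uncalled, stood at 0.12 under the GC and length correction, with or without the block, and its values and those of CCNG2, MDM2 and FAS, all uncalled, crossed 0 when 1 library was left out, at −0.11 to 0.09 for ZMAT3, −0.12 to 0.06 for CCNG2, −0.01 to 0.13 for MDM2 and −0.20 to 0.08 for FAS. REV3L (−0.32) and CDK13 (−0.24) lost their calls under that correction and LOC101928589 (2.65) in the fit of only the groups compared. Depth limits genes under 1 TPM, where few were called.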
